A study of Homo sapiens with 4 samples.

Results

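Heavy polysomes were compared between wild type HCT116 cells and HCT116 cells labelled as a Dicer1 knockout. HCT116 is an established cell line from a human colorectal carcinoma. Cytoplasmic extract was spread on a sucrose gradient, and the heavy fraction held mRNAs carrying 10 or more ribosomes. The comparison rests on 2 of the 4 libraries, 1 for each genotype: wild type heavy and Dicer1 knockout heavy. The other 2 libraries are the light fractions of the same genotypes, with mRNAs carrying 9 or fewer ribosomes, and are used here only beside the heavy values. The way in which the gene was altered, the passage of the cells and whether the knockout line is 1 clone are not stated in the labels. A gene was measured if it had at least 100 counts in the higher of the 2 heavy libraries, which held for 10690 of the 26364 genes listed. Of those measured, 98.1% were protein-coding.

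Dicer is the ribonuclease that cuts hairpin precursors into mature microRNAs. A mature microRNA is loaded into an Argonaute protein and pairs, mainly through its seed near the 5′ end, with sites in the 3′ UTR of an mRNA, which lowers the translation and the stability of that mRNA. The number of ribosomes on an mRNA grows with the length of its coding sequence and with how often translation starts. A gene's count in a heavy library therefore reflects both how much of its mRNA a cell holds and how much of that mRNA is heavily loaded, and without total RNA these cannot be told apart.

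The wild type heavy library held 20933675 counts and the knockout heavy library 19238492. All ratios are log2 of labelled knockout over wild type, from CPM (counts scaled to a common library size) scaled with TMM factors, after a prior count of 2 was added. A log2 ratio of 1 is a 2-fold difference, and genes at or past 2-fold are called higher or lower. Intervals are 95% limits for counting error alone. They may be too narrow even for that, since these reads carry no molecular identifiers and may be copies of each other. With 1 library a side there was no replicate check: no p-value was computed, and a difference between the libraries cannot be told apart from a difference between any 2 cultures. RNA45S5, the ribosomal RNA precursor, took 2.61% of the wild type heavy counts and 4.32% of the knockout heavy counts. Of 10 colon carcinoma markers 8 were measured, among them EPCAM with 16332 counts in wild type and 17555 in the knockout, while of 20 stromal and blood cell markers 2 were measured and 9 were at 0 in both heavy libraries.

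DICER1 itself, at chr14:95086228-95158010 on the minus strand (GRCh38), had 500 counts in the wild type heavy library and 925 in the library labelled knockout. Its log2 ratio was 0.95 (interval 0.79 to 1.11), and the light libraries gave 0.96 from 547 and 889 counts. The targeted gene was thus the more abundant in the library labelled knockout, just short of 2-fold. Because the altered position is not given, and the table sums reads over the whole gene, this count does not check the label for a small deletion or insertion that leaves the transcript in place. The genotype is therefore given below as the label states it.

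Most mRNAs differed little between the heavy libraries. The median log2 ratio over all measured genes was -0.04, and the middle of the distribution, from the 25th to the 75th percentile, ran from -0.32 to 0.27. In the library labelled knockout 348 genes (3.26% of those measured) were 2-fold or more higher and 278 (2.60%) were 2-fold or more lower, 626 (5.86%) in all. At 4-fold, 38 genes were higher and 37 lower. The counting interval lay wholly past 2-fold for 188 of the higher and 146 of the lower genes. Many genes sat close to the threshold: 135 were between 1.9-fold and 2.1-fold higher and 125 between 1.9-fold and 2.1-fold lower. Among the 2450 genes with 2000 or more counts in the higher library, where the median half-width of the interval was 0.07, 45 were higher and 55 lower.

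**Figure D1:**
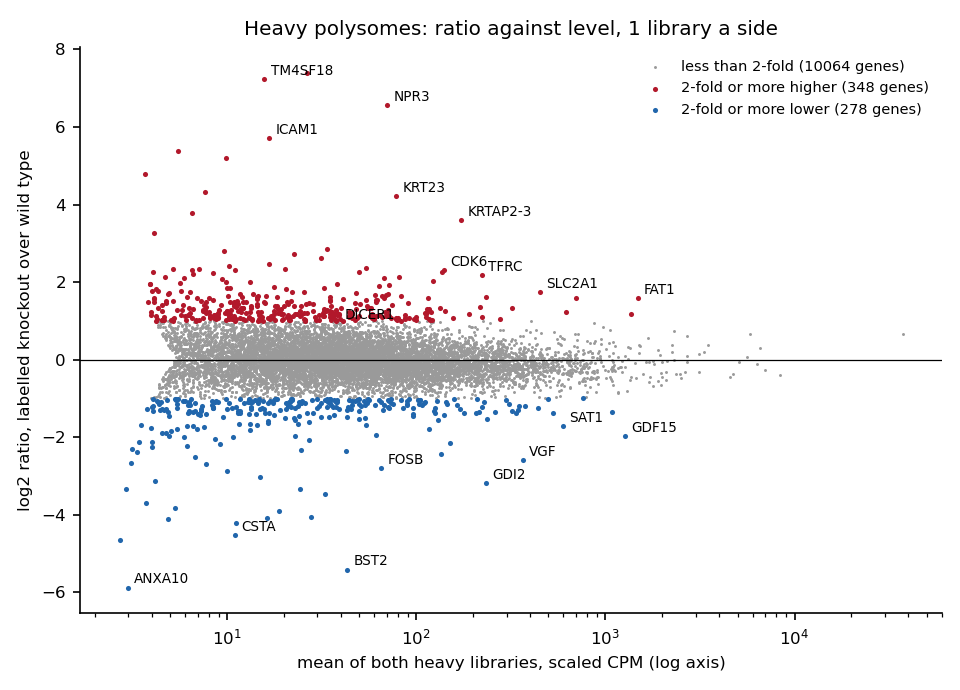
Log2 ratio of labelled knockout over wild type in heavy polysomes (y axis) against the mean scaled CPM of both heavy libraries (x axis, log scale), 1 point per measured gene, with 348 genes called higher in red and 278 called lower in blue. ANXA10, with 0 counts in the knockout library, is drawn at a value set by the prior count. The funnel at the left edge is the minimum of 100 counts.

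The highest ratios belonged to genes that were almost silent in wild type heavy polysomes and clearly present in the library labelled knockout. TM4SF18, a tetraspan membrane protein, had 2 counts in wild type and 567 in the knockout, a log2 ratio of 7.23. NPR3, the clearance receptor for natriuretic peptides, had 26 and 2512 counts (6.55, interval 6.02 to 7.09). Both genes lay about as far apart in the light pair, at 7.36 and 6.44.

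Surface, cytoskeletal and signalling genes followed. ICAM1, an adhesion molecule bound by leukocyte integrins, had 10 and 595 counts (5.71), although 29.5% of its exon bases overlap a gene on the opposite strand and the strand setting of the counting is not given. DCLK1, a microtubule-associated kinase used as a marker of tuft cells, had 3 and 196 counts (5.38). ZBED2, a zinc finger protein, had 8 and 350 counts (5.21), and PODXL2, a sialomucin related to podocalyxin, had 3 and 130 (4.80). The cytokine gene IL32 had 12 and 264 counts (4.32). The keratin gene KRT23 had 148 and 2688 counts (4.23), whereas KRT8 and KRT18, the main keratins of simple epithelium, stood at 0.14 and -0.05. KRTAP2-3, a keratin-associated protein from a family of near-identical copies whose reads may be split between them, had 497 and 5762 counts (3.59). WNT3A, a Wnt ligand, had 15 and 222 counts (3.79), PER3, a period gene of the circadian clock, had 13 and 136 (3.27), SNTB1, a syntrophin, stood at 2.85 and NAV3, a microtubule-binding protein, at 2.81.

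Several genes with high counts in both libraries were also far apart. CDK6, the G1 cyclin-dependent kinase, had 885 counts in wild type and 4208 in the knockout, a log2 ratio of 2.31 (2.21 to 2.42). TFRC, the transferrin receptor, had 1516 and 6575 counts (2.18), and the glucose transporter gene SLC2A1 had 3920 and 12553 (1.74, interval 1.69 to 1.79). FAT1, a giant protocadherin, had 13999 and 40282 counts (1.59). ANKRD52, a subunit of a protein phosphatase that acts on Argonaute, had 569 and 2396 counts (2.13). ANO1, a calcium-activated chloride channel, had 921 and 3570 counts (2.02), and ADAM19, a membrane protease, had 561 and 2056 (1.93). ZBTB20, a transcriptional repressor, had 891 and 4112 counts (2.27), with 55.3% of its exon bases shared with another gene on the same strand.

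At the other end, ANXA10, an annexin expressed in gastric epithelium, had 113 counts in wild type and 0 in the knockout, at least 36-fold lower when the 0 is set to its upper limit of 3 counts. BST2, which encodes tetherin, an interferon-induced membrane protein that holds budding viruses at the cell surface, had 1593 and 34 counts, a log2 ratio of -5.41 (-5.89 to -4.93). HEPH, the copper-dependent ferroxidase hephaestin, had 100 and 2 counts (-4.66). CSTA, the cysteine protease inhibitor cystatin A, had 401 and 15 counts (-4.51), and SLPI, a secreted inhibitor of leukocyte elastase, had 102 and 8 (-3.33). MTM1, the phosphoinositide phosphatase myotubularin, had 404 and 19 counts (-4.22), and IFI27, an interferon-induced gene, had 175 and 8 (-4.10). SEMA3A, a secreted guidance cue, had 666 and 41 counts (-3.90), and LCN2, the iron-siderophore binding protein lipocalin 2, had 835 and 78 (-3.33). ARMC4 (583 and 31 counts, -4.09), BHMG1 (989 and 55, -4.06), ZC4H2 (190 and 11, -3.83), FXYD3 (132 and 8, -3.70, with 88.1% of exon bases shared with a gene on the same strand) and GFY (1141 and 98, -3.45) complete the lowest group together with GDI2.

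GDI2, which recycles Rab GTPases from membranes, was the most abundant gene in that group, with 7943 and 838 counts (-3.18, interval -3.28 to -3.08). Among other genes with high counts, FOSB, an AP-1 subunit, had 2156 and 297 counts (-2.79). VGF, a secreted neuropeptide precursor, had 11893 and 1890 counts (-2.59), and GDF15, a stress-induced cytokine of the TGF-beta family, had 38506 and 9352 (-1.98, interval -2.01 to -1.95). ARRDC4, an arrestin-like protein, had 4314 and 760 counts (-2.44), and SAT1, the acetyltransferase that starts polyamine breakdown, had 17250 and 5030 (-1.71). ASS1, argininosuccinate synthase, had 3675 and 1200 counts (-1.55), and MAP1LC3B, the autophagosome protein LC3B, had 6690 and 2215 (-1.53).

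Differences in heavy polysomes were mostly shared with light polysomes. Of the 348 higher genes 325 were measured in the light pair, where 321 had the same sign and 122 were also 2-fold or more higher (3.91% of all genes measured in the light pair were). The median over these 325 genes was 1.24 in the heavy pair and 0.81 in the light pair. Of the 278 lower genes 247 were measured in the light pair, where 244 had the same sign and 125 were 2-fold or more lower (background 3.05%), and their median was -1.23 in the heavy pair and -1.02 in the light pair. As the design describes them, the heavy and light libraries of a genotype are fractions of the same gradient, so the light pair is not an independent repeat.

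A small number of genes lay further apart in the heavy than in the light fraction. The heavy ratio exceeded the light ratio by 2-fold or more, with an interval that left out 0, for 31 of the 325 higher genes, and for 0.921% of the 10418 genes measured in both pairs. ATG2B, a lipid transfer protein of autophagy, had 43 and 216 counts in heavy (2.34) but 82 and 101 in light (0.55), a difference of 1.79 in log2. RC3H2, an RNA-binding protein that speeds mRNA decay, had 129 and 316 counts in heavy (1.34) and 506 and 440 in light (0.06). KIAA2018 stood at 1.69 in heavy and 0.36 in light, and ST6GALNAC3, a sialyltransferase, at 1.81 and 0.54. Among the lower genes 20 of 247 differed by as much in the other direction, as did 2.38% of all genes measured in both pairs. These genes were chosen by their heavy ratio, which favours such differences, and some of them were also past 2-fold in the light pair. MTM1 stood at -4.22 in heavy and -1.66 in light, GFY at -3.45 and -1.47, VGF at -2.59 and -0.85 and LCN2 at -3.33 and -1.97. GDF15 had 38506 and 9352 counts in heavy but 9121 and 4651 in light, where its ratio was -0.71. RPF1, a ribosome assembly factor, had 8684 and 3305 counts in heavy (-1.33) and 4317 and 3482 in light (-0.05). These heavy-minus-light differences carry counting error only, and were not tested against replicates.

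**Figure D2:**
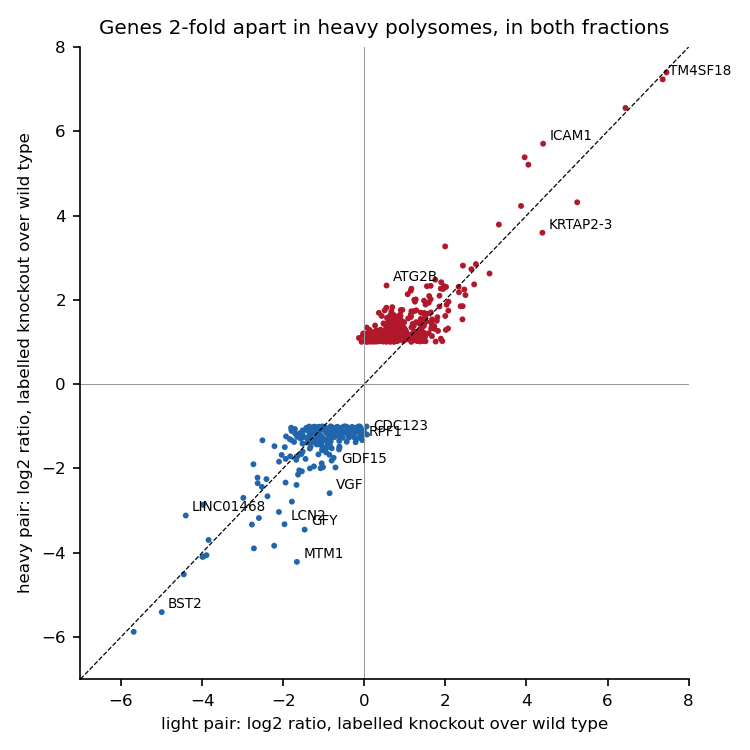
Log2 ratio in the heavy pair (y axis) against the light pair (x axis) for genes 2-fold or more apart in heavy polysomes and measured in the light pair, red for higher and blue for lower, with a dashed line of equality. No point lies between -1 and 1 on the y axis because heavy calls chose the genes; MTM1, GFY and VGF lie below the line and ATG2B above it.

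Genes of microRNA biogenesis and of deadenylation and decapping lay near the median of all genes as lists, and 2 genes of the silencing complex were higher. MicroRNAs are cut from primary transcripts by DROSHA with DGCR8, exported by XPO5 and cut again by Dicer with TARBP2. None of the 17 measured genes of microRNA biogenesis was called, and their median log2 ratio was -0.04, although DICER1 reached 1.006 when library totals were used for scaling. DROSHA had 1370 and 1097 counts (-0.26), XPO5 2360 and 1963 (-0.20), DGCR8 438 and 519 (0.31) and TARBP2 324 and 302 (-0.04). Of 14 genes of the silencing complex 2 were higher and none lower, and 10 lay above 0. The list's median of 0.18 became 0.06 once the median of genes of like coding length was removed. Of all measured genes 3.26% were higher and 46.7% lay above 0. TNRC6A, a GW182 protein that links Argonaute to deadenylation, had 633 and 1966 counts (1.70), and AGO1 had 359 and 827 (1.26), while AGO2 stood at 0.68 from 701 and 1072. DCP2, the catalytic subunit of the decapping enzyme, was the only called gene of 30 in deadenylation and decapping, with 601 and 1808 counts (1.65). That list had a median of -0.04, and 1 of 30 is near the share of all measured genes called higher.

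The microRNAs whose seeds bear on the results below are shown with bases 2 to 8, the seed, in capitals (RefSeq, GRCh38.p14). The first group shares a seed, miR-29a and miR-92a follow it in the ranking of seed sites, and let-7a and miR-122 are set beside them as a microRNA common in epithelial cells and a liver microRNA.
hsa-miR-17-5p: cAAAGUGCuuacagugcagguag
hsa-miR-20a-5p: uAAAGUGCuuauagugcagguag
hsa-miR-93-5p: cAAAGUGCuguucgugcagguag
hsa-miR-106b-5p: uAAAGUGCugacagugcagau
hsa-miR-29a-3p: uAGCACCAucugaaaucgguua
hsa-miR-92a-3p: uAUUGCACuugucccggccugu
hsa-let-7a-5p: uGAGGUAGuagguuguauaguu
hsa-miR-122-5p: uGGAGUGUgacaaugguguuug

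Sites for 35 microRNA seed families were searched as 8 bases, the complement of the seed followed by A, in the 3′ UTRs of 10480 measured genes. The 615 genes with the miR-17 site GCACTTTA had a median log2 ratio of 0.20, against -0.08 for the 7139 genes without even a 7-base match to that seed. Of the 615, 56 (9.11%) were called higher and 10 (1.63%) lower, beside 3.26% and 2.60% of all measured genes. Sites of other families also went with high shares of higher genes: 8.59% for miR-21, 8.14% for miR-19a, and 7.51% and 7.26% for miR-9 and miR-142, which are characteristic of other tissues. UTRs with the miR-17 site were longer, with a median of 3194 nucleotides against 876. Compared within 5 equal classes of 3′ UTR length, the difference was 0.20, the first of the 35 families, and in the light pair it was 0.14. The families next in order were miR-29a at 0.15 and miR-92a at 0.12. In the light pair miR-29a, also at 0.15, stood above miR-17. Genes with the let-7a site stood 0.01 apart from genes without it (rank 27), those with the miR-21 site -0.01 and those with the miR-122 site 0.01. The 28 families common in epithelial and cancer cell lines had differences from -0.05 to 0.20 with a median of 0.05, and the 7 families characteristic of other tissues had 0.00 to 0.06 with a median of 0.01. MicroRNA levels in these cells were not measured here.

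The number of miR-17 sites went with the share of higher genes. With 0, 1, and 2 or more 7-base sites the median log2 ratio was -0.08, 0.02 and 0.15, and the share called higher was 2.24%, 3.58% and 7.16%. Among genes with 3′ UTRs over 2000 nucleotides the shares were 3.87%, 4.9% and 7.93%, but the median UTR length still went from 2959 to 3418 and 4301 nucleotides. With UTRs up to 2000 nucleotides the shares were 1.79%, 1.86% and 3.25%. The sites of the most separated genes with an 8-base match are printed 5′ to 3′ on the mRNA strand (GRCh38), with the match in capitals. The shared seed can pair with GCACTTT, and the last capital A lies outside the seed.
ZBTB18: atattaacttgtttttGCACTTTAgaatag
ATG2B: catgttctgttgtgttGCACTTTAtcctgt
ITGB8: gactagtgtcgttgtaGCACTTTActgtaa
ZBTB20: tttctgcattgaaaatGCACTTTAaaaaat
VASH2: tgtggtgcttctctctGCACTTTAcccagc
ANKRD52: agtctaaacatttaggGCACTTTAaaggag
FRS2: tgggcactcttccccaGCACTTTAgcagta
EPHA4: agtttacctcatccatGCACTTTAattgaa

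ZBTB18, a transcriptional repressor, had 95 counts in wild type and 515 in the knockout (2.48), with the site at chr1:244055482-244055511 on the plus strand. ATG2B (chr14:96285151-96285180, minus) stood at 2.34, as given above. ITGB8, an integrin subunit that activates TGF-beta, had 31 and 157 counts (2.33) with the site at chr7:20410212-20410241 on the plus strand. The site of ZBTB20 is at chr3:114316670-114316699 and that of ANKRD52 at chr12:56243052-56243081, both on the minus strand. VASH2, a tubulin carboxypeptidase, had 43 and 198 counts (2.22; chr1:212988615-212988644, plus), and FRS2, an adaptor of FGF receptors, had 99 and 384 (1.998; chr12:69576154-69576183, plus). EPHA4, an ephrin receptor, had 81 and 284 counts (1.85; chr2:221425964-221425993, minus). These genes were chosen by their ratio among genes with the site, so their values are a description, and a match does not show that a microRNA binds there.

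Lists of targets named in the literature varied by microRNA. Of 30 miR-17 family targets 5 were higher and none lower, with a median of 0.37: EPHA4, ZNFX1 with 630 and 1906 counts (1.66), ZBTB4 with 460 and 980 (1.15), TGFBR2, a TGF-beta receptor, with 247 and 526 (1.15), and FYCO1 with 713 and 1442 (1.08). The miR-17 targets E2F1 and CDKN1A stood at -0.06 and -0.40. For miR-200 targets the median of 20 genes was 0.51 in heavy, and that of 19 in light was 0.07. Of the 20, 2 were higher, but 4 with library totals and 1 with median-of-ratios size factors. For miR-21 targets the median of 23 was 0.28 with 2 higher, and 0.07 in light. For 27 let-7 targets the median was 0.30 and 17 lay above 0. The 2 higher were CDK6 and NRAS (675 and 1454 counts, 1.17). The 2 lower were E2F5 (-1.10) and IGF2BP3, an RNA-binding protein, with 3405 and 951 counts (-1.77). Genes on the opposite strand overlap 30.8% of the exon bases of E2F5 and 35.6% of those of IGF2BP3. The classical let-7 target HMGA2 had 1377 and 1641 counts (0.32). The median of 22 miR-15/16 targets was -0.08 and that of 17 miR-34 targets 0.16. All lists are to be read against the median of -0.04 over all genes, of which 3.26% were called higher and 2.60% lower.

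Genes with long 3′ UTRs and long coding sequences had the higher ratios in heavy polysomes. With 3′ UTRs up to 500 nucleotides the median log2 ratio was -0.18 and 1.2% of genes were called higher, and with 3′ UTRs over 4000 nucleotides it was 0.15 and 6.98%. Over the same classes the share called lower went from 3.48% to 0.987%. In the light pair the medians at these ends were 0.07 and 0.13. By coding length the heavy medians went from -0.18 at up to 500 nucleotides to 0.24 above 5000, and the light medians from -0.11 to 0.35. Among genes with coding sequences of 1000 to 2000 nucleotides, 1.67% were higher with a 3′ UTR up to 1000 and 7.21% with one above 3000. Of 54 very long coding mRNAs 7 were higher, where 3.26% of all measured genes were, and none was lower. Among the 54, 51 lay above 0 (46.7% of all genes did), with a median of 0.48. In the light pair 12 of 52 were higher (3.91% of all genes measured there were) and the median was 0.79. AHNAK, a giant scaffold protein, had 2178 and 6429 counts (1.62), SPTBN1, a spectrin, 625 and 1497 (1.32), and MACF1, a cytoskeletal linker, 1269 and 3015 (1.31). After the median of genes of like coding length was removed, the list's median was 0.24. The same adjustment brought the mesenchymal and matrix list described below from 0.56 to 0.35 and cholesterol and fatty acid synthesis from 0.40 to 0.24. For miR-34 targets the median went from 0.16 to 0.29.

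**Figure D3:**
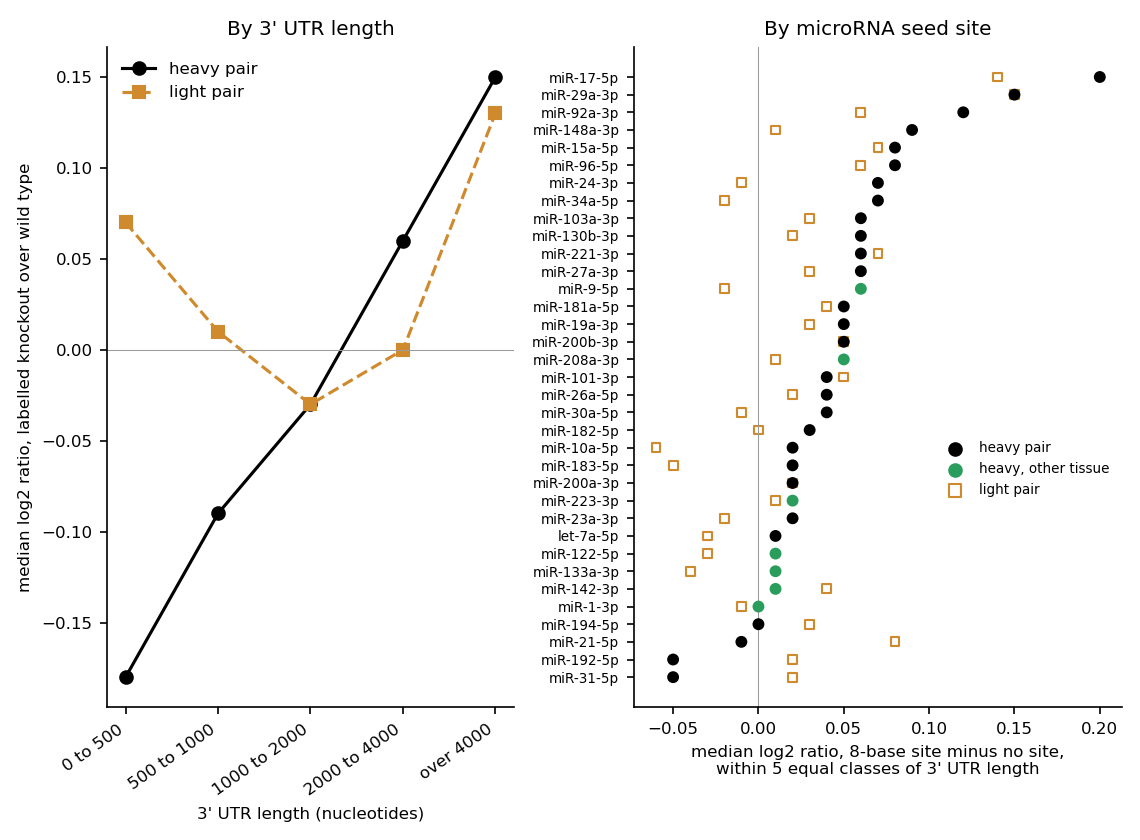
Left, median log2 ratio of labelled knockout over wild type by 3′ UTR length class, in the heavy pair (black) and the light pair (orange); the heavy medians go from -0.18 to 0.15. Right, difference in median between genes with an 8-base seed site and genes without a match, within 5 equal classes of 3′ UTR length, for 35 families (heavy pair black, or green where the microRNA is characteristic of another tissue; light pair orange), with miR-17-5p first at 0.20 in the heavy pair.

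Interferon-stimulated genes, which are switched on by interferon signalling and act against viruses, were lower as a list. Of 52 genes 38 were measured, 11 were 2-fold or more lower, none was higher and 30 lay below 0. Of all measured genes 2.60% were lower and 53.3% lay below 0. The list's median was -0.57 in the heavy pair and -0.01 in the light pair. In the light pair 4 of 35 were lower and 1 was higher, where 3.05% of all genes were lower. Beside BST2 and IFI27, IFITM1, which blocks viral entry, had 502 and 57 counts (-3.03), though its close paralogs may share its reads. OAS1, an RNA-sensing synthetase, had 150 and 35 counts (-1.98) and OASL 470 and 145 (-1.62). ISG15, a ubiquitin-like modifier, had 5686 and 2084 counts (-1.38), IRF9 had 1502 and 504 (-1.51) and IFI6 1210 and 478 (-1.27). PARP14 (280 and 362 counts, 0.43) and IFITM2 (2606 and 3041, 0.29) stood on the other side. In the antigen presentation list 2 of 23 genes were lower, beside 2.60% of all measured genes, and none was higher. Its median was -0.17 in heavy and 0.54 in light.

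The promoters of 5 of the 7 lower interferon-stimulated genes with a match, those with the lowest ratios, are shown around it. The motif is the interferon-stimulated response element, GAAA followed by any 2 bases and GAAA on either strand, in capitals (RefSeq, GRCh38.p14, window of 250 bases before to 50 after the start site).
BST2: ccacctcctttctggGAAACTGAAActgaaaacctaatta
IFI27: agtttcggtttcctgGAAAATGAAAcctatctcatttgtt
IFITM1: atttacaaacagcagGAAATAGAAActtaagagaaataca
ISG15: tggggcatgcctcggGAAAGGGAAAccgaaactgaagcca
IFI6: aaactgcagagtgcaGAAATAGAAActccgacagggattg

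These windows lie at chr19:17405736-17405775 (minus) for BST2, chr14:94110626-94110665 (plus) for IFI27, chr11:313985-314024 (plus) for IFITM1, chr1:1013369-1013408 (plus) for ISG15 and chr1:27672261-27672300 (minus) for IFI6. The motif was found in 20 of the 33 measured interferon-stimulated genes with a promoter in the table (60.6%) and in 996 of all 27305 promoters (3.65%). Within the list, the 20 genes with the motif had a median log2 ratio of -0.46 with 7 lower, and the 13 without it -0.57 with 3 lower. The match thus did not separate the lower members of the list from the others.

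Stress and early response genes were also lower. Early response genes encode short-lived transcription factors induced within minutes of a stimulus. Of 35 such genes 6 were lower, none was higher and the median was -0.62 (-0.40 in light), where 2.60% of all measured genes were lower. Beside FOSB, ATF3 had 4642 and 1001 counts (-2.15), EGR2 569 and 192 (-1.50), JUNB 9881 and 4114 (-1.20) and EGR1 14337 and 7194 (-0.93), while RHOB stood at 0.51. In the integrated stress response, which acts through the transcription factor ATF4, 8 of 37 genes were lower and none higher, with a median of -0.35. TRIB3 had 3449 and 1274 counts (-1.37), DDIT4 9252 and 3390 (-1.39), SESN2 1204 and 414 (-1.47), CHAC1 1154 and 450 (-1.29) and DDIT3, which encodes CHOP, 529 and 234 (-1.11). ATF4 itself had 4030 and 4383 counts (0.18). Of 30 hypoxia response genes 6 were lower and 1 higher, with a median of -0.47. The number lower was 4 with library totals and 7 with median-of-ratios size factors. Light-pair values were 5 of 29 lower and 3 higher (3.05% and 3.91% of all genes), with a median of -0.13. PDK1 had 723 and 266 counts (-1.37) and BNIP3 1344 and 513 (-1.32), against SLC2A1 at 1.74. VEGFA had 2302 and 1098 counts (-1.003) and was not called with library totals (-0.945). These lists overlap, since ATF3 and DDIT4 each stand in more than 1 of them.

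Wnt, Hippo and matrix genes held more higher than lower members. The Wnt pathway stabilises beta-catenin, which turns on its own feedback inhibitors. Of 45 measured Wnt genes 7 were higher and 2 lower, with a median of 0.23. Over all measured genes 3.26% were higher and 2.60% lower. Beside WNT3A, the feedback inhibitors AXIN2 (111 and 714 counts, 2.73, with 30.9% of its exon bases shared with another gene on the same strand), RNF43 (517 and 1332, 1.43) and ZNRF3 (230 and 498, 1.17) were higher. The receptor FZD1 (245 and 474, 1.01) and the ligand BMP4 (324 and 1490, 2.26) were higher too, and the inhibitors DKK1 (11669 and 4675, -1.26) and NKD2 (225 and 89, -1.26) were lower. MYC stood at -0.36. Of 32 Hippo pathway genes and YAP targets 4 were higher, FAT1, PTPN14 (429 and 1034, 1.33), FJX1 (1.26) and the kinase LATS2 (222 and 485, 1.18), while the YAP targets CTGF (993 and 409, -1.21) and CYR61 (8038 and 3454, -1.16) were lower. Of 24 mesenchymal and matrix genes 5 were higher and none lower, with a median of 0.56. COL12A1, a collagen, had 481 and 1996 counts (2.11), MMP14, a membrane matrix protease, 110 and 303 (1.51), PLAT, tissue plasminogen activator, 273 and 724 (1.46), LAMB3, a laminin chain, 1064 and 2127 (1.06), and COL1A1 468 and 911 (1.02), while the transcription factor SNAI1 stood at -0.53. Epithelial junction genes had a median of -0.02 with 1 of 33 lower, ELF3, an epithelial transcription factor, from 5854 to 2213 counts (-1.34).

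Genes of the translation and energy machinery were slightly lower together, with no or few calls. Of 78 cytosolic ribosomal protein genes none was called and 75 lay below 0, with a median of -0.37. RPS6 had 38630 and 24624 counts (-0.59) and RPL3 43437 and 30649 (-0.44). These proteins have short coding sequences, and after the median of like coding length was removed the list stood at -0.20. The median was -0.26 for 75 oxidative phosphorylation genes and -0.22 for 76 mitochondrial ribosomal protein genes, with none called in either, and -0.10 and -0.07 after the same adjustment. Of 36 translation initiation factors 2 were at the threshold, EIF4B (7621 and 3557, -1.04) and EIF1 (19192 and 9176, -1.001), and with library totals neither was called (-0.98 and -0.94). Of 42 DNA replication genes 2 were lower, MCM10 (1757 and 750, -1.16) and MCM7, a helicase subunit whose gene hosts the miR-106b, miR-93 and miR-25 hairpins, with 14335 and 5309 counts (-1.37). In the light pair MCM7 stood at -0.43. Beside the 2.60% of all measured genes called lower, the 2 of 36 and the 2 of 42 are not read as results about the lists. Cholesterol and fatty acid synthesis genes went the other way, with a median of 0.40 over 35 genes, of which 23 lay above 0. Only 1 of the 35 was called higher, SCD, a fatty acid desaturase, with 15806 and 34230 counts (1.18). Of all measured genes 3.26% were called higher. The lowest members included SREBF1 (-0.59) and SQLE (-0.49).

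**Figure D4:**
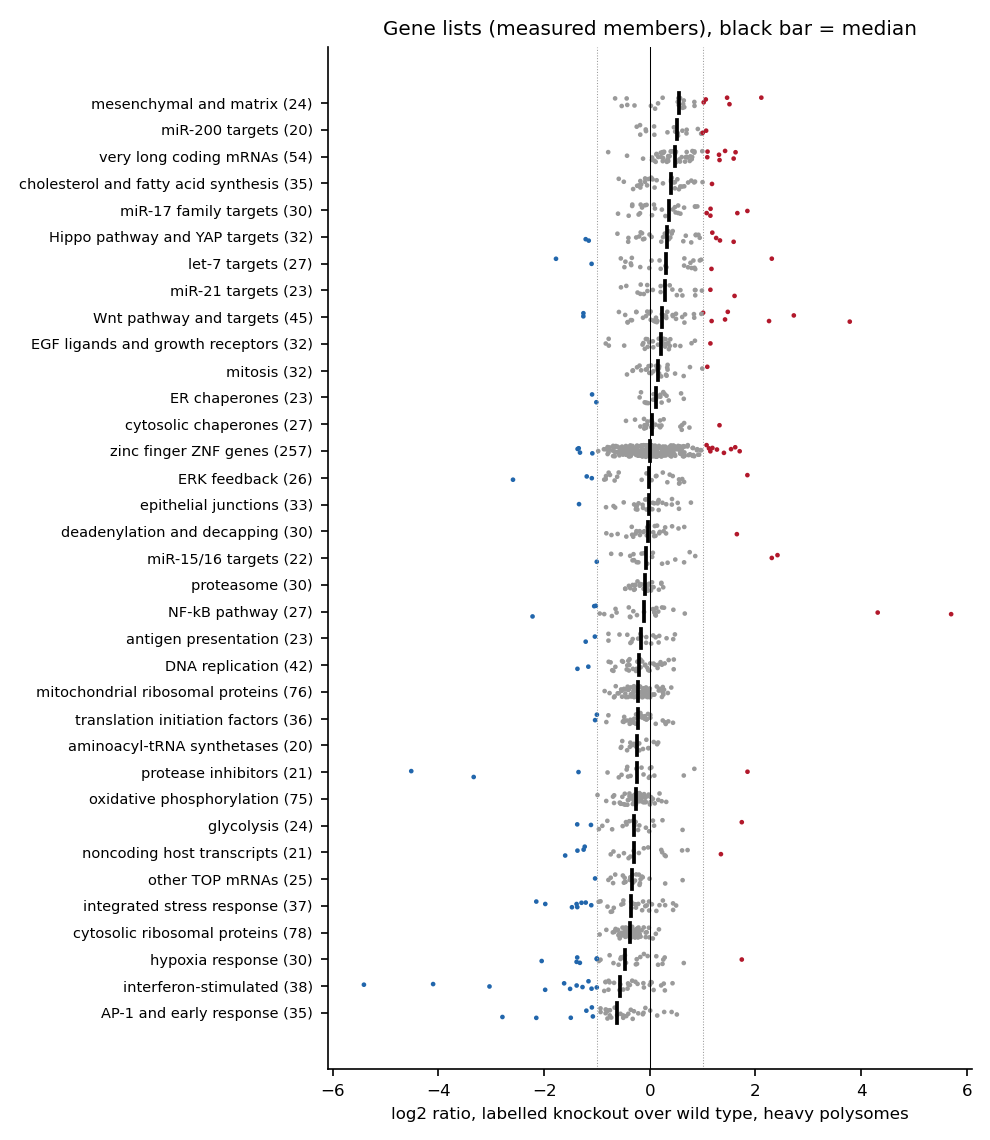
Log2 ratio of labelled knockout over wild type in heavy polysomes for each measured member of the gene lists shown, all with 20 or more measured members (number in brackets), in order of their medians (black bars), with genes 2-fold or more higher in red and lower in blue. Early response and interferon-stimulated genes lie at the low end with medians of -0.62 and -0.57, and mesenchymal and matrix genes at the high end with 0.56; a gene can stand in several lists.

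Genes in 1 stretch of the genome were called lower more often than genes elsewhere. The stretch was chosen after the values were seen, so its counts are a description and not a test. In the first 40 Mb of chromosome 10 (GRCh38), 94 genes were measured, 85 lay below 0 and 31 (33.0%) were 2-fold or more lower, against 2.33% of the 10596 genes elsewhere. Most of the 278 lower genes, 247, lay outside the stretch. The median log2 ratio of the stretch was -0.74 in the heavy pair and -0.77 in the light pair. For the other 333 genes of the chromosome it was -0.00, with 10 lower. By windows of 10 Mb from the start of the chromosome the medians were -0.74, -0.73, -0.94 and -0.32, and the next window stood at 0.25. Of 241 such windows with 15 or more measured genes across the genome, 3 had a median at or below -0.5, all of them in this stretch, and the next lowest elsewhere was -0.33. The last window of the stretch, at -0.32, was not below that.

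The stretch holds several of the genes named above and others. GDI2 lies at chr10:5765223-5842132 on the minus strand and ARMC4, an axonemal dynein docking protein, lies in the third window. MKX, a homeobox gene of tendon cells, had 332 and 42 counts (-2.87), PARD3, a polarity protein, 2637 and 947 (-1.41), NUDT5, a nucleotide sugar hydrolase, 2654 and 924 (-1.46), ABI1, an actin regulator, 2547 and 1035 (-1.23) and PFKFB3, a regulator of glycolysis, 635 and 280 (-1.11). MCM10, from the DNA replication list, and ATP5C1, the lowest oxidative phosphorylation gene with 12050 and 5808 counts (-0.99), also lie there. BAMBI, a TGF-beta pseudoreceptor with 108 and 291 counts (1.48), was the only higher gene of the stretch. The intermediate filament gene VIM stood at 0.62, with 45.6% of its exon bases overlapped on the opposite strand. Without the stretch 247 genes were called lower and 347 higher in the heavy pair. DNA copy number was not measured here, and a difference that belongs to the line cannot be told apart from one that belongs to the Dicer1 label.

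**Figure D5:**
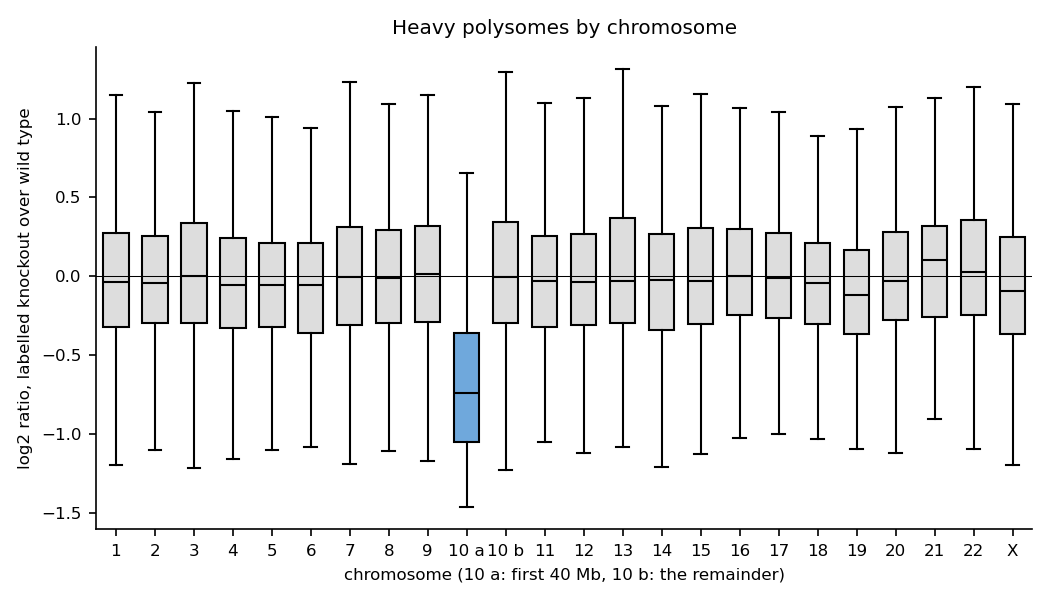
Log2 ratio of labelled knockout over wild type in heavy polysomes by chromosome (boxes from the 25th to the 75th percentile, line at the median, whiskers to the last gene within 1.5 box lengths, genes beyond not drawn), with chromosome 10 split into its first 40 Mb (blue) and the remainder. The blue box has a median of -0.74 and the other part of chromosome 10 has -0.00.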

How the data were processed

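Per the submitters' processing notes, reads went through CASAVA, STAR and HTSeq on hg19; tool versions, gene annotation and strand handling were not given in the sources. The authors deposited raw read counts per gene symbol in 4 libraries, 1 per group. Factors came from TMM in edgeR 4.0.16 (R 4.3.3) over all 4 libraries after filterByExpr. Log2 ratios used a prior count of 2, and intervals (95%) are Poisson limits by the delta method. Their computation was checked on simulated Poisson counts, which cannot show how well they cover the spread of these reads. The limit that a count of 0 allows is 3 counts, 0.143 to 0.156 CPM in the heavy libraries. Symbols were matched to GENCODE release 44 (GRCh38; 24414 of 26364) for gene type, position and 3′ UTR; seeds and promoters are from RefSeq. Named genes are DICER1, the 15 highest and 15 lowest protein-coding ratios, the 10 highest and 10 lowest among genes with 2000 or more counts, the 3 highest and lowest of each of 48 gene lists, and the 8 largest and 8 smallest heavy-minus-light differences; other genes named were chosen after their values were seen, and some items are not reported here. The members and lists were chosen with earlier results of these data known. Other scalings, prior counts, count minimums and a coding length adjustment were tried.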

Additional observations from a re-analysis of the deposited data

Results flagged for a closer look

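Some results pointed in opposite directions in the heavy and the light pair; in each case the difference was not tested, since each pair has 1 library a side. CDC123, which helps assemble initiation factor eIF2 and lies in the first 40 Mb of chromosome 10, stood at -1.20 in heavy (9237 and 3852 counts) and 0.07 in light (4684 and 4098). The glycolysis list had a median of -0.29 in heavy and 0.31 in light. The oxidative phosphorylation list had -0.26 and 0.22, the aminoacyl-tRNA synthetases -0.25 and 0.49, and the mitochondrial ribosomal proteins -0.22 and 0.24. In glycolysis GAPDH stood at -0.39 in heavy and 0.30 in light, and among the synthetases AARS stood at -0.54 and 0.52.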

How the results depend on the processing

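Against 348 higher and 278 lower genes, a minimum of 500 counts gave 172 and 150, no minimum 1326 and 909, and intervals wholly past 2-fold 188 and 146. Other settings stayed within 1.5 times: library totals gave 405 and 231, median-of-ratios size factors 304 and 313, TMM over the heavy libraries alone 385 and 248, and removal of coding length 348 and 225. The higher share of called genes ranged from 49.3% to 63.7%, against 55.6%. TMM with no filter on genes (366 and 260) and leaving out the first 40 Mb of chromosome 10 (347 and 247) were chosen after seeing the data. Removing coding length moved 17 of 48 list medians. No called gene among those named reversed; list medians near 0, such as those of microRNA biogenesis and ERK feedback, changed sign with library totals (0.02 and 0.04). No paired analysis was possible because each genotype has 1 library in the heavy fraction, and no library could be left out for the same reason. Genes near 100 counts carry wide intervals.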

Other observations

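Circadian clock genes, a list put together after their values were seen, are given as a description only. Of 17 genes 14 were measured, 7 were 2-fold or more higher and none lower, and the list's median was 0.72 in the heavy pair and 0.58 in the light pair. The choice of the list sets these counts, so they are not read against other genes. PER2, a repressor of the clock, had 69 counts in wild type and 334 in the knockout (2.31), CRY2 had 104 and 325 (1.69), CRY1 202 and 411 (1.08) and CLOCK, an activator, 498 and 1118 (1.23). ARNTL, the partner of CLOCK, had 813 and 417 counts (-0.90), and NR1D1, a repressor of ARNTL, 5634 and 3421 (-0.66). PER1 stood at -0.01.

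Zinc finger genes of the ZNF series had a median of 0.01. Among 257 measured, 9 were higher and 4 lower, beside 3.26% and 2.60% of all measured genes. Among noncoding transcripts the small nucleolar RNA hosts SNHG8 (774 and 243 counts, -1.60) and SNHG7 (959 and 390, -1.23) were lower, and MALAT1, a nuclear RNA, was higher (2323 and 5659, 1.35). Genes on the opposite strand overlap 83.7% of the exon bases of MALAT1 and 40.3% of those of SNHG8. Since the strand setting of the counting is not given, these 2 counts are uncertain. Of 8 measured S100 genes S100A4 (-1.18) and S100A14 (-1.17) were lower, beside 2.60% of all measured genes.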
